A study of Mus musculus with 24 samples.

Results

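The genes described here are 10 genes of transmitter release in the retina: Syp, Snap25, Vamp2, Syt1, Stx3, Slc17a7, Ctbp2, Bsn, Cplx2 and Sv2b. Every probe set that the platform annotation assigns to 1 of these symbols alone was taken, which gave 15 of the 22690 probe sets on the array and stood for 8 of the 10 genes, out of 12394 genes named on the array. Slc17a7, the vesicular glutamate transporter of photoreceptors and bipolar cells, and Sv2b, a vesicle glycoprotein, had no probe set under their symbol in that annotation and were not analysed here. Syp, Vamp2, Syt1, Ctbp2 and Bsn were each read by 2 probe sets, Stx3 by 3, and Snap25 and Cplx2 by 1.

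Retinal total RNA of C57Bl/6 mice was hybridised to 24 arrays, in 8 groups of 3. The hyperoxia groups were mice of postnatal day 7, 8, 10 or 12 that had spent 12, 24, 72 or 120 hours in raised oxygen, and the room air groups were mice of the same 4 ages kept in normal air. Age and hours of exposure advance together in the hyperoxia groups and cannot be told apart. The oxygen level, the number of animals behind an array and whether replicates were separate animals are not given in the labels, so each p-value speaks of the spread among these arrays alone, and that spread may be technical.

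Photoreceptors and bipolar cells release glutamate continuously at ribbon synapses, where a plate-shaped ribbon anchored at the active zone holds vesicles close to the calcium channels. Fusion itself uses the SNARE machinery shared with other synapses: a vesicle protein (Vamp2) pairs with plasma membrane proteins (Snap25 and a syntaxin, which at ribbon synapses is Stx3), Syt1 senses calcium and complexins clamp or promote the last step. The mouse retina assembles these synapses after birth and before the eyes open.

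Levels are log2 intensities after quantile normalization. They can be set side by side between arrays for 1 probe set, but not between probe sets. Probe sets were tested in 1 limma fit over all 24 arrays, and a call needs a p under 0.05 after Benjamini-Hochberg adjustment over 15838 probe sets. Of the 15 probe sets, 14 passed the filter on dim signal. The exception was the Bsn probe set 1422023_at, which lay at the floor of 7.10 on 20 of 24 arrays, including all 12 hyperoxia arrays, and was not tested.

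As a check of the tissue, the mean level of 10 measured rod photoreceptor markers lay between 13.25 and 14.35 on the 24 arrays. Signal of neighbouring tissue was uneven: the mean of 14 lens markers ran from 7.24 on the lowest array to 14.05 on the highest, both in the room air group of day 12, and the mean of 9 pigment epithelium markers from 9.45 to 11.93. The pigment epithelium markers share Rlbp1 with the Müller glia markers used below, so that score is not a measure of neighbouring tissue alone. Replicate arrays of a group correlated at 0.946 to 0.985 over the 15838 tested probe sets, and 0 pairs of arrays were identical.

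Hyperoxia was compared with room air at each age and averaged over the 4 ages. Of the 14 tested probe sets, 0 were called in any of these 5 comparisons with limma, and 0 had an unadjusted p under 0.05. Among all 15838 probe sets the share called was 0.0631% at day 7, 0.0821% at day 8, 0.0631% at day 10, 0.0126% at day 12 and 0.492% in the average, so few calls were made on the array as a whole. The lowest adjusted p among the release genes was 1 at day 7, 0.963 at day 8, 0.462 at day 10, 0.672 at day 12 and 0.751 in the average.

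The 95% confidence intervals show which differences the arrays leave possible. They are not adjusted for the number of probe sets, so their ends are not the limit for a call. At a single age the intervals were wider, with a highest bound of 2.40 at day 10. Averaged over the ages, the tightest was that of Ctbp2 on probe set 1422887_a_at, at -0.00 with a 95% confidence interval of -0.09 to 0.09. Snap25 was at 0.01 (-0.08 to 0.11). The widest was that of Syt1 on 1431191_a_at, at 0.25 (-0.35 to 0.86). For Syt1, a change of 1.5-fold in the higher direction therefore lies inside the interval, while for Ctbp2 and Snap25 it does not. Over all 14 probe sets the average difference had a median of 0.05, against 0.00 over all tested probe sets, and ranged between -0.02 and 0.25.

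**Figure D1:**
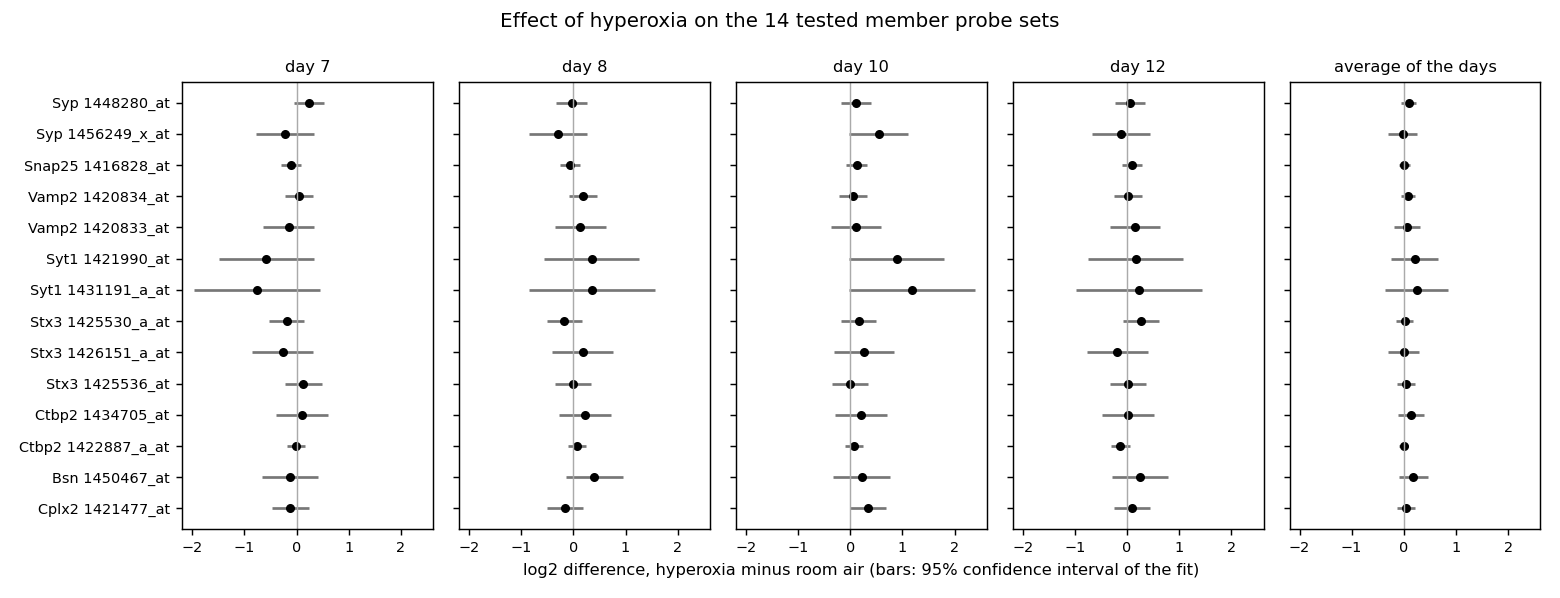
Log2 difference, hyperoxia minus room air, for the 14 tested probe sets at each postnatal day and averaged over the days; points are fitted differences and bars 95% confidence intervals. Every interval includes 0, and those of the 2 Syt1 probe sets are the widest.

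The vesicle membrane gene Syp encodes synaptophysin, the most used marker of synaptic vesicles. Its probe set 1448280_at stood at 13.72, 13.62 and 13.60 in hyperoxia at day 7, against 13.39, 13.35 and 13.48 in room air. All 3 hyperoxia arrays lay above all 3 room air arrays, and 7.05% of tested probe sets did not overlap in either direction at this age. The difference of 0.24 ± 0.14 (SE of the fit, n = 3 arrays per group, adjusted p = 1) was not called. At the later ages the groups overlapped, with 13.65, 13.42 and 13.77 in hyperoxia against 13.39, 13.77 and 13.78 in room air at day 8, and 13.67, 13.80 and 13.62 against 13.68, 13.43 and 13.65 at day 10. At day 12 it read 14.06, 13.52 and 13.82 in hyperoxia and 13.55, 13.75 and 13.90 in room air. Ordered from low to high, the 8 group means began with room air at day 7 and ended with hyperoxia at day 12, and only the lowest gap, of 0.18, was larger than the SDs of the pair beside it.

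The second Syp probe set, 1456249_x_at, is dimmer and carries the suffix for probes that may also match other sequences. At day 10 it read 8.88, 9.26 and 9.19 in hyperoxia, against 8.70, 8.17 and 8.83 in room air. The arrays did not overlap, as for 21.5% of tested probe sets at day 10, and the difference of 0.54 ± 0.27 (adjusted p = 0.465) was not called. At day 7 the same probe set was at 8.64, 9.01 and 8.58 in hyperoxia and 9.23, 8.74 and 8.93 in room air, a difference of -0.22 ± 0.27. The 2 Syp probe sets did not vary together between replicates (r = 0.01 over 24 arrays, permutation p = 0.98).

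Snap25, the plasma membrane SNARE, had the second smallest spread between replicates among the 14 tested probe sets. In hyperoxia its levels were 13.81, 13.67 and 13.79 at day 7, 13.90, 13.67 and 13.89 at day 8, 14.04, 14.00 and 13.91 at day 10, and 14.14, 13.96 and 14.08 at day 12. In room air they were 13.92, 13.84 and 13.83 at day 7, 13.90, 13.79 and 13.95 at day 8, 13.80, 13.80 and 13.99 at day 10, and 13.88, 13.98 and 14.04 at day 12. At day 7 every hyperoxia array lay below every room air array, where 7.05% of tested probe sets did not overlap in either direction. The difference was -0.11 ± 0.09 in the fit (adjusted p = 1), and from day 8 on the groups overlapped. The 8 group means spanned 0.30, with hyperoxia at day 7 lowest and hyperoxia at day 12 highest. Among neighbours in that order, only the step above room air at day 8 (0.09) was larger than the SDs of the pair.

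Stx3 encodes the syntaxin of ribbon terminals, and its 3 probe sets did not move as 1. The brightest, 1425530_a_at, read 14.16, 13.68 and 13.81 in hyperoxia at day 12, against 13.50, 13.58 and 13.77 in room air, a difference of 0.27 ± 0.16 (adjusted p = 0.672), which was the lowest adjusted p of the release genes at that age. At day 7 the same probe set read 13.68, 13.41 and 13.50 in hyperoxia, against 13.61, 13.72 and 13.84 in room air. The contrast of the effect at day 12 against the effect at day 7 was 0.46 ± 0.23 (adjusted p = 0.797) and was not called. The other 2 probe sets differed between hyperoxia and room air by -0.18 ± 0.28 and 0.01 ± 0.17 at day 12. Deviations of 1425530_a_at from its group means did not track those of 1426151_a_at (r = 0.06, permutation p = 0.87).

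Ctbp2 gives rise, from an internal start, to Ribeye, the main protein of the ribbon, and also to a nuclear corepressor. The files do not say which transcript each of its probe sets reads. Probe set 1422887_a_at had the smallest spread among the release genes: it stood at 12.72, 12.72 and 12.71 in hyperoxia at day 12, against 12.72, 12.96 and 12.85 in room air. The groups did not overlap, as for 11.7% of tested probe sets at day 12, and the difference of -0.13 ± 0.09 (adjusted p = 0.701) was not called. Across all 24 arrays this probe set stayed between 12.56 and 12.96. The other, 1434705_at, ran from 12.72 to 13.77, and its deviations did not track those of the first (r = -0.09, permutation p = 0.61).

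Bsn encodes bassoon, the active zone scaffold that anchors the ribbon. Its tested probe set, 1450467_at, ranged from 8.50 to 9.54 in hyperoxia and from 8.13 to 9.16 in room air, and its average difference was 0.19 ± 0.13 (adjusted p = 0.751). Cplx2, a complexin of conventional synapses, read 11.95, 12.04 and 11.74 in hyperoxia at day 10, against 11.52, 11.43 and 11.75 in room air. The 2 groups met at 11.74 and 11.75, and the difference of 0.34 ± 0.17 (adjusted p = 0.465) was not called.

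**Figure D2:**
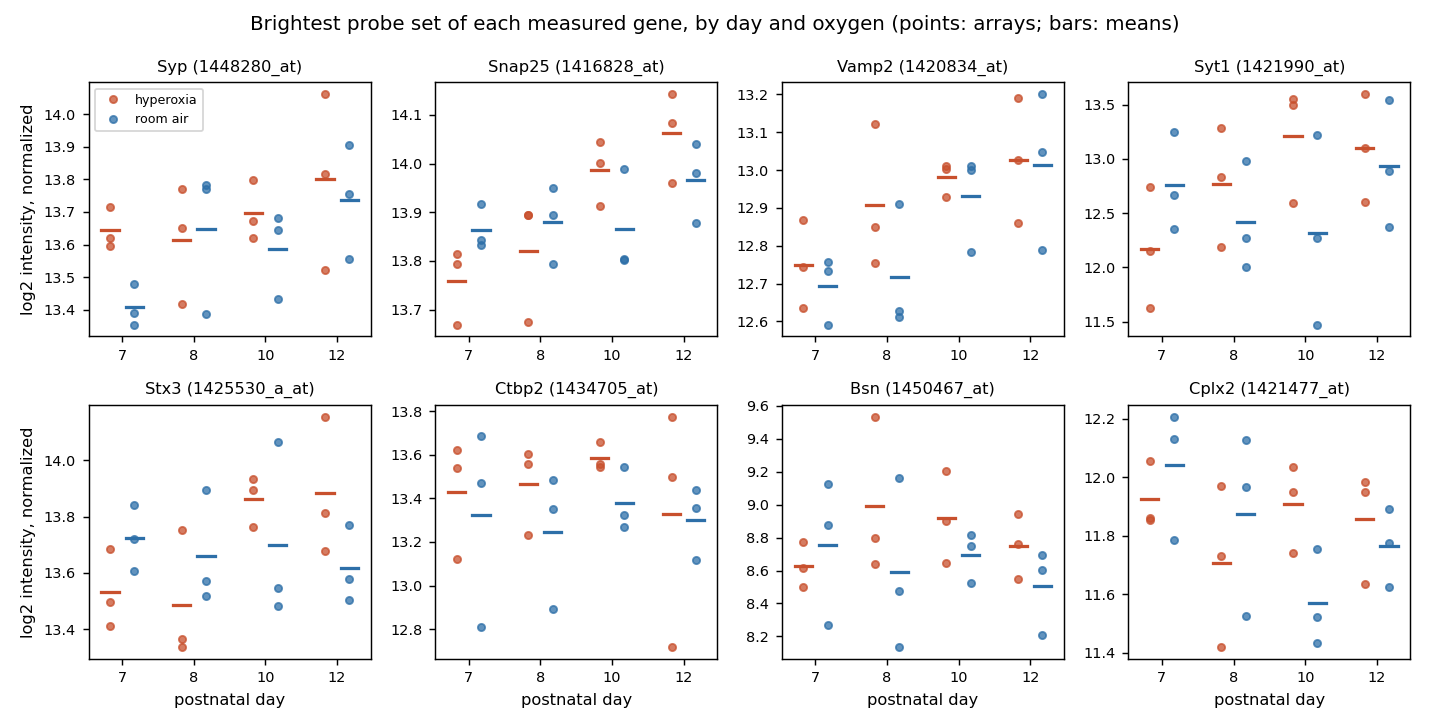
Log2 normalized intensity of the brightest probe set of each of the 8 measured genes by postnatal day, with hyperoxia to the left of room air; points are arrays and bars group means of 3 arrays, and each panel has its own scale. The Syt1 panel covers 11.47 to 13.60 and the Snap25 panel 13.67 to 14.14, and at most ages hyperoxia and room air arrays interleave.

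Whether the effect of hyperoxia differed among the ages was tested with an F test over the 4 days. It called 0 of the 14 release probe sets, 0 of which had an unadjusted p under 0.05, and 0% of the 15838 tested. A contrast of the effect at day 12 against the effect at day 7 gave the same counts, and 0 of the 14 had an unadjusted p under 0.05 in it.

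Change with age was compared between days 7 and 12 within each condition. In hyperoxia, 2 of 14 release probe sets rose, that of Snap25 and 1 of the 2 of Vamp2, and 0 fell, against 12.6% of all tested probe sets called, 5.95% higher and 6.64% lower. In room air, 0 of 14 were called with limma, against 12.4% of all tested, and 3 of the 14 had an unadjusted p under 0.05, against 25.8% of all tested. In hyperoxia 6 of the 14 did, against 25.6% of all tested. The median difference over the 14 was 0.22 in hyperoxia and 0.10 in room air, against -0.03 over all tested probe sets in both conditions.

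Snap25 rose in hyperoxia by 0.30 ± 0.09 (adjusted p = 0.0364), and the arrays of the 2 ages did not overlap, as for 26.4% of tested probe sets in either direction. In room air the difference was 0.10 ± 0.09 with an interval of -0.09 to 0.30. Vamp2, the vesicle SNARE, rose on probe set 1420833_at by 0.79 ± 0.23 (adjusted p = 0.0298): at day 12 it read 12.38, 12.54 and 12.37 in hyperoxia, against 11.22, 11.79 and 11.92 at day 7. The arrays of the 2 ages did not overlap. In room air the same probe set was at 11.82, 12.68 and 12.34 at day 12, against 11.97, 11.71 and 11.71 at day 7, a difference of 0.48 ± 0.23 (adjusted p = 0.199) with overlapping arrays. The brighter Vamp2 probe set, 1420834_at, differed by 0.28 ± 0.13 in hyperoxia (adjusted p = 0.176) and was not called. The change in hyperoxia minus that in room air was 0.20 ± 0.13 for Snap25 (adjusted p = 0.845) and 0.31 ± 0.33 for Vamp2 on 1420833_at (adjusted p = 0.886), so a difference between the conditions was not shown.

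Both calls lay near the threshold, and each was lost in most fits that left out 1 array of the ages compared. Snap25 was no longer called without hyperoxia day 7 replicate 1, 2 or 3 or without hyperoxia day 12 replicate 1 or 3, with differences of 0.26 to 0.33 and adjusted p of 0.0555 to 0.131. Vamp2 was no longer called without hyperoxia day 7 replicate 1 or without hyperoxia day 12 replicate 1, 2 or 3, with differences of 0.58 to 0.82 and adjusted p of 0.0581 to 0.161. Pigment epithelium signal also separated these ages: its score lay between 10.68 and 11.93 in hyperoxia at day 12 and between 9.45 and 10.45 at day 7, 4 of 9 measured markers rose with a median of 1.22, and the lens score ranged between 8.05 and 13.90 in hyperoxia at day 12 and between 7.74 and 13.86 at day 7. With both scores as covariates the differences were 0.34 ± 0.13 for Snap25 (adjusted p = 0.149) and 0.73 ± 0.31 for Vamp2 (adjusted p = 0.229), close to those without, with larger standard errors. Without the filter on dim probe sets Vamp2 had an adjusted p of 0.0524. In whole retina, fewer cells of a type and less RNA per cell cannot be told apart.

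With the replicate number as a block, 3 rather than 2 probe sets were called in hyperoxia, while the share called over all tested probe sets was 14.9% with the block and 12.6% without it. The third was Stx3 on 1426151_a_at, at 0.69 with an adjusted p of 0.0392. Its arrays read 11.81, 12.07 and 12.09 at day 12, against 10.75, 11.51 and 11.62 at day 7, without overlap, as for 26.4% of tested probe sets in either direction. Without the block its adjusted p was 0.114.

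In room air, 3 probe sets had day 12 arrays wholly above day 7 arrays, among 28.3% of tested probe sets without overlap in either direction, and none was called. Syp on 1448280_at differed by 0.33 ± 0.14 (adjusted p = 0.135). Vamp2 on 1420834_at read 12.79, 13.20 and 13.05 at day 12, against 12.59, 12.73 and 12.76 at day 7, a difference of 0.32 ± 0.13 (adjusted p = 0.114). This probe set was called without room air day 12 replicate 1, at 0.43 (adjusted p = 0.0484). Stx3 on 1426151_a_at read 11.79, 12.20 and 12.54 at day 12, against 11.55, 11.52 and 11.62 at day 7, a difference of 0.61 ± 0.28 (adjusted p = 0.172). Between neighbouring ages, 0 of 14 were called in any of the 6 steps, where the share called over all tested probe sets was 0% between days 7 and 8 in either condition, 0.227% in hyperoxia and 1.05% in room air between days 8 and 10, and 0.41% in hyperoxia and 0.0253% in room air between days 10 and 12. An unadjusted p under 0.05 was found for 2 of the 14 in the step between days 8 and 10 in hyperoxia, against 10.4% of all tested probe sets, and for 0 in each of the other 5 steps.

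The wider release machinery was described with 4 lists of other genes, each gene by its brightest probe set. Of 77 listed genes 59 had a probe set and 58 were tested. Averaged over the ages, hyperoxia against room air called 0 of the 58 with limma, and 4 had an unadjusted p under 0.05, against 8.95% of all tested probe sets. Between days 7 and 12, 20 of 58 rose and 2 fell in hyperoxia, with a median of 0.26, and 20 of 58 rose and 3 fell in room air, with a median of 0.24. Over all tested probe sets, 5.95% were higher and 6.64% lower in hyperoxia, and 7.16% were higher and 5.21% lower in room air. These shares include dimmer second probe sets of a gene, so they are not like for like with the lists.

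Among 16 other vesicle proteins and transporters, 6 rose and 0 fell in hyperoxia, and 8 rose and 1 fell in room air. Vamp1, a close relative of Vamp2, had the largest differences of the list. It read 10.08, 10.18 and 10.32 in hyperoxia at day 12, against 8.90, 8.69 and 7.10 at day 7, and the last of these values is the floor. Its difference was 1.97 ± 0.31 (adjusted p = 0.00023), or 1.40 without that array (adjusted p = 0.000181). In room air it read 9.88, 10.01 and 10.31 at day 12, against 8.72, 8.47 and 8.45 at day 7, a difference of 1.52 ± 0.31 (adjusted p = 0.00223). Scamp5, a secretory carrier membrane protein, rose by 0.56 ± 0.12 in hyperoxia and 0.59 ± 0.12 in room air. The vesicle glycoprotein Sv2a rose by 0.51 ± 0.12 in hyperoxia and 0.48 ± 0.12 in room air, and Syngr3, a synaptogyrin, by 0.67 ± 0.18 in hyperoxia and 0.80 ± 0.18 in room air.

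Among 18 other SNARE proteins and fusion regulators, 5 rose in hyperoxia and 7 in room air, and 0 fell in either. Cplx4, a complexin of ribbon synapses, read 13.21, 13.03 and 13.43 in hyperoxia at day 12, against 11.97, 12.13 and 11.62 at day 7, a rise of 1.31 ± 0.15 (adjusted p = 9.81e-06). In room air it read 13.11, 13.19 and 13.37 at day 12, against 11.91, 12.27 and 11.89 at day 7, a rise of 1.20 ± 0.15 (adjusted p = 2.48e-05). The member Cplx2 differed over the same interval by -0.07 ± 0.17 in hyperoxia and -0.28 ± 0.17 in room air, and neither was called. Of the other complexins, Cplx1 rose by 0.98 (adjusted p = 0.0252) and Cplx3 by 0.33 (adjusted p = 0.0178) in room air. Neither gene was called in hyperoxia, where Cplx1 was called with the replicate number as a block, at 0.84 (adjusted p = 0.013). Nsf, the ATPase that takes SNARE complexes apart, rose by 0.67 ± 0.12 in hyperoxia and 0.57 ± 0.12 in room air. The synaptotagmin Syt3 rose by 0.52 ± 0.16 in hyperoxia and 0.73 ± 0.16 in room air, and Syt4 by 0.43 ± 0.10 in hyperoxia and 0.39 ± 0.10 in room air.

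Among 11 other active zone and ribbon proteins, 5 rose and 1 fell in hyperoxia, and 3 rose and 1 fell in room air. Rims2, an organiser of the active zone, read 11.88, 11.48 and 11.39 in hyperoxia at day 12, against 10.59, 10.51 and 10.63 at day 7. Its rise was 1.00 ± 0.12 (adjusted p = 1.4e-05) in hyperoxia and 1.03 ± 0.12 (adjusted p = 9.33e-06) in room air. Cacna1f, the calcium channel subunit of photoreceptor terminals, rose by 0.69 ± 0.13 in hyperoxia and 0.86 ± 0.13 in room air. Unc119, a photoreceptor protein found at ribbon synapses, rose by 0.25 ± 0.08 in hyperoxia and 0.33 ± 0.08 in room air. Ctbp1, the relative of Ctbp2, fell by 0.34 ± 0.10 in each condition. The 2 Ctbp2 probe sets themselves differed by -0.10 ± 0.24 and -0.02 ± 0.09 in hyperoxia and by -0.02 ± 0.24 and 0.10 ± 0.09 in room air.

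Among 13 genes of vesicle endocytosis, 4 rose and 1 fell in hyperoxia, and 2 rose and 1 fell in room air. Dnm1, the GTPase that cuts vesicles from the membrane, rose by 0.63 ± 0.12 in hyperoxia and 0.88 ± 0.12 in room air. Sh3gl2, an endophilin, rose by 0.68 ± 0.15 in hyperoxia and 0.60 ± 0.15 in room air. Cltb, a clathrin light chain, fell by 0.50 ± 0.13 in hyperoxia and by 0.43 ± 0.13 in room air, and Ap2a1, an adaptor subunit, was at 0.36 ± 0.16 in hyperoxia and 0.37 ± 0.16 in room air and not called.

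Second probe sets did not always pass: those of Syngr3 (0.50 ± 0.19 in hyperoxia and 0.40 ± 0.19 in room air), Scamp5 (0.86 ± 0.37 in hyperoxia and 0.42 ± 0.37 in room air), Syt4 (0.44 ± 0.16 in hyperoxia and 0.36 ± 0.16 in room air) and Cltb (-0.34 ± 0.13 in hyperoxia and -0.20 ± 0.13 in room air) had the same sign and were not called in either condition. Every other tested probe set of Nsf, Rims2, Dnm1 and Sh3gl2 was called higher in both conditions. Of the 15 named genes called in each condition, 10 kept the call in hyperoxia and 10 in room air whichever single array of the 2 ages was left out, in 6 fits per condition. In hyperoxia the call of Unc119 ended in all 6 such fits, that of Syt3 or Ctbp1 held in 2, of Syngr3 in 3 and of Cltb in 4. In room air the call of Ctbp1 or Cltb held in 1 of 6, of Sv2a or Sh3gl2 in 4 and of Syt4 in 5. Unc119 in hyperoxia was also not called with the floor at the 30th percentile (adjusted p = 0.0533). On the deposited scaling Unc119 and Ctbp1 were not called in either condition (adjusted p of 0.0627 and 0.057 in hyperoxia, 0.0625 and 0.0639 in room air). With the lens and pigment scores as covariates, 4 of 15 stayed called in hyperoxia (Vamp1, Cplx4, Nsf and Rims2) and 12 of 15 in room air. The named genes were picked for low p in room air, and that choice favours keeping a call there. Over all 58 list genes, 6 were called higher and 0 lower in hyperoxia with these covariates, against 20 and 2 without. In room air 12 were called higher and 0 lower, against 20 and 3. The 11 named genes that lost the call in hyperoxia kept their direction, with log2 differences of 0.65 to 1.13 times those without covariates. The 3 named genes that lost it in room air were at 0.88 to 1.06 times. Over the 15 genes the standard errors were 1.25 to 1.39 times as large with covariates in hyperoxia and 1.04 to 1.16 times in room air. In hyperoxia Syngr3 was at 0.65 ± 0.24 with covariates, Sv2a at 0.56 ± 0.17 and Ctbp1 at -0.22 ± 0.13. Retinal markers moved over the same interval: 6 of 10 rod markers rose in hyperoxia and 7 of 10 in room air, while 6 of 8 neural progenitor markers fell in hyperoxia and 5 of 8 in room air. Of 9 markers of bipolar cells, the other cells with ribbons, 2 rose and 2 fell in each condition. Of 8 cone markers 3 rose and 1 fell in hyperoxia, and 4 rose and 1 fell in room air. Ganglion cell markers rose for 2 of 10 in hyperoxia and 5 of 10 in room air. Of 10 Müller glia markers 4 rose and 1 fell in hyperoxia, and 3 rose and 1 fell in room air. Their part in the changes of the release genes was not tested.

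**Figure D3:**
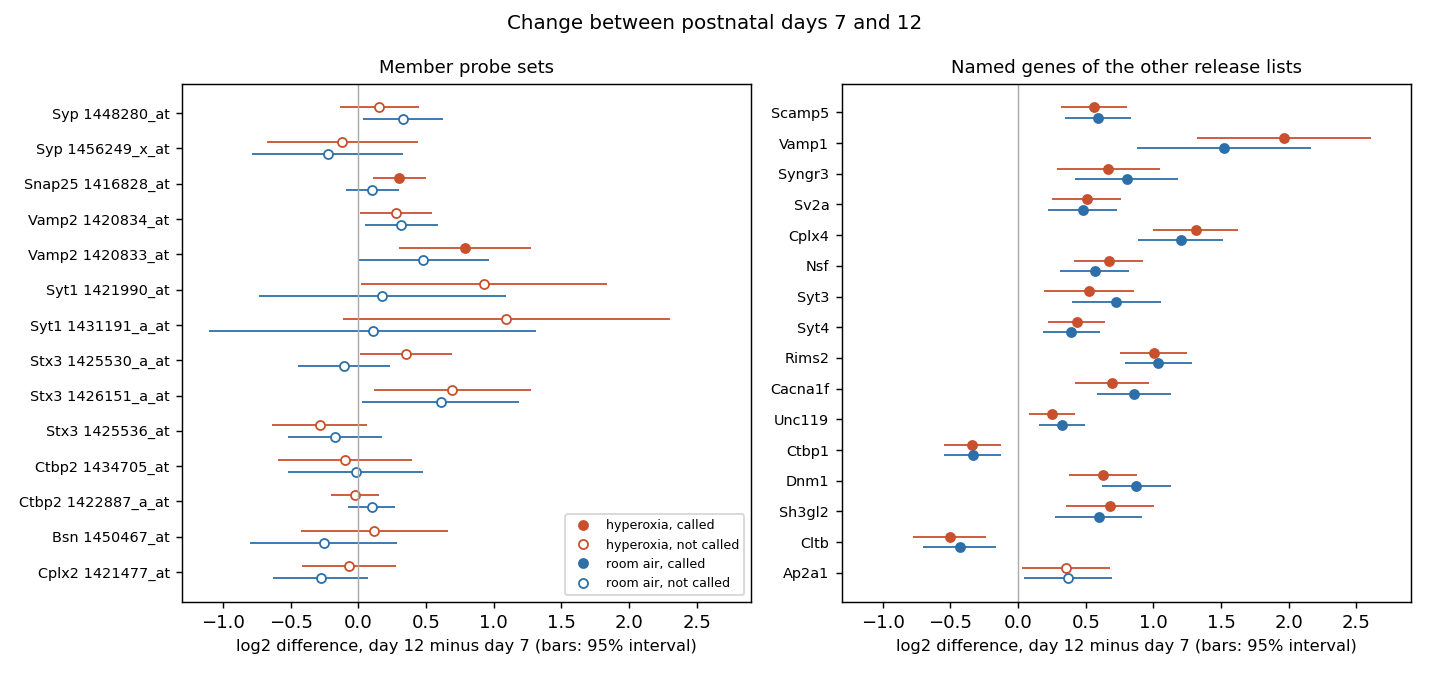
Log2 difference, day 12 minus day 7, for the 14 tested probe sets (left) and for the 16 named genes of the other release lists (right), hyperoxia drawn above room air; points are fitted differences, filled where called, and bars 95% confidence intervals. On the left 2 points are filled, both in hyperoxia. The genes on the right were picked for the lowest p in room air within each list, so most of their points are filled by that choice, and over the whole lists of 58 genes 20 rose and 2 fell in hyperoxia, and 20 rose and 3 fell in room air.

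Syt1, the calcium sensor of fast release, differed more between replicates than nearly every other probe set on the array. In hyperoxia 1421990_at read 11.62, 12.15 and 12.74 at day 7, 13.29, 12.19 and 12.83 at day 8, 13.55, 12.60 and 13.50 at day 10, and 12.60, 13.10 and 13.60 at day 12. In room air it read 13.25, 12.35 and 12.67 at day 7, 12.00, 12.27 and 12.98 at day 8, 11.47, 12.27 and 13.22 at day 10, and 12.37, 12.89 and 13.54 at day 12. Groups overlapped at every age, and no neighbouring pair of the 8 group means was further apart than the SDs of the pair. The residual SD was 0.584 for this probe set and 0.778 for 1431191_a_at, and 97.8% and 99.3% of tested probe sets had a smaller one. For comparison it was 0.070 for Ctbp2 on 1422887_a_at, 0.088 for Snap25 and 0.214 for the median tested probe set.

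With that spread, differences of Syt1 that were large in size were not called. At day 10 hyperoxia minus room air was 0.89 ± 0.44 and 1.19 ± 0.58 on the 2 probe sets (adjusted p = 0.464 and 0.462). At day 7 it was -0.58 ± 0.44 and -0.76 ± 0.58 (adjusted p = 1 for both). Between days 7 and 12 the hyperoxia arrays differed by 0.93 ± 0.44 and 1.09 ± 0.58 (adjusted p = 0.186 and 0.247).

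The spread was shared. Taken as deviations from the group means over 24 arrays, the 2 Syt1 probe sets correlated at r = 0.95 (rho = 0.92), and 1421990_at correlated with Stx3 on 1426151_a_at at r = 0.88 (rho = 0.89) and with Vamp2 on 1420833_at at r = 0.73 (rho = 0.72). Among 9 such relations tested by permutation, the adjusted p was 4.5e-05, 4.5e-05 and 0.0077 for these 3 values of r. Without the 2 arrays farthest from the median, r was 0.94, 0.84 and 0.68. The 9 were the pairs within a gene and these pairs of Syt1 with Stx3 and Vamp2, chosen with earlier results of these data known. Other pairs across genes were not among them, and the adjustment does not cover that choice. The 2 probe sets of Vamp2 correlated at 0.42 (adjusted p = 0.25), which did not pass.

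The array also carries control probe sets at the 3' and 5' ends of Actb, whose difference is used as a sign of RNA and labelling quality. That difference, 3' minus 5', ran between 0.03 and 0.35 on the log2 scale over the 24 arrays. Its deviations went against those of Vamp2 on 1420833_at (r = -0.70, rho = -0.71), Syt1 on its 2 probe sets (r = -0.65 and -0.66, rho = -0.72 and -0.69), Stx3 on 1426151_a_at (r = -0.64, rho = -0.69) and Bsn on 1450467_at (r = -0.62, rho = -0.62). Of 28 relations tested by permutation with the Actb and Gapdh controls, these 5 passed after adjustment over the 28 (adjusted p of 0.033 to 0.04 for r and 0.024 to 0.031 for rho), and none with Gapdh did. Without the 2 arrays farthest from the median, r was -0.67, -0.70, -0.73, -0.57 and -0.72 in the same order. The other probe sets of Vamp2 and Stx3 had r of -0.11, 0.12 and 0.21 and did not pass. The part of RNA quality in this spread was not tested.

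When the Actb difference was added as a covariate, a choice made after the spread had been seen, 2 probe sets were called higher at day 12 than at day 7 in room air: Vamp2 on 1420833_at, at 0.63 (adjusted p = 0.0267), and Stx3 on 1426151_a_at, at 0.77 (adjusted p = 0.0306). The share of all tested probe sets called with this covariate was 13.2% in hyperoxia and 12.7% in room air. In hyperoxia Snap25 and Vamp2 kept their calls, at 0.30 (adjusted p = 0.0419) and 0.74 (adjusted p = 0.00871). No release probe set was called for hyperoxia against room air with this covariate either. The average differences of Syt1 were then 0.39 ± 0.18 and 0.50 ± 0.23 (adjusted p = 0.395 and 0.406), against 0.21 and 0.25 without it. Bsn on 1450467_at was at 0.29 ± 0.11 (adjusted p = 0.311), against 0.19. Stx3 on 1425530_a_at and 1425536_at and Cplx2 moved lower, to 0.00, 0.01 and 0.03. At day 10 Syt1 was at 1.14 ± 0.35 and 1.53 ± 0.46 (adjusted p = 0.206 and 0.197), against 0.89 and 1.19. The call of Unc119 in hyperoxia ended with this covariate (adjusted p = 0.05).

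**Figure D4:**
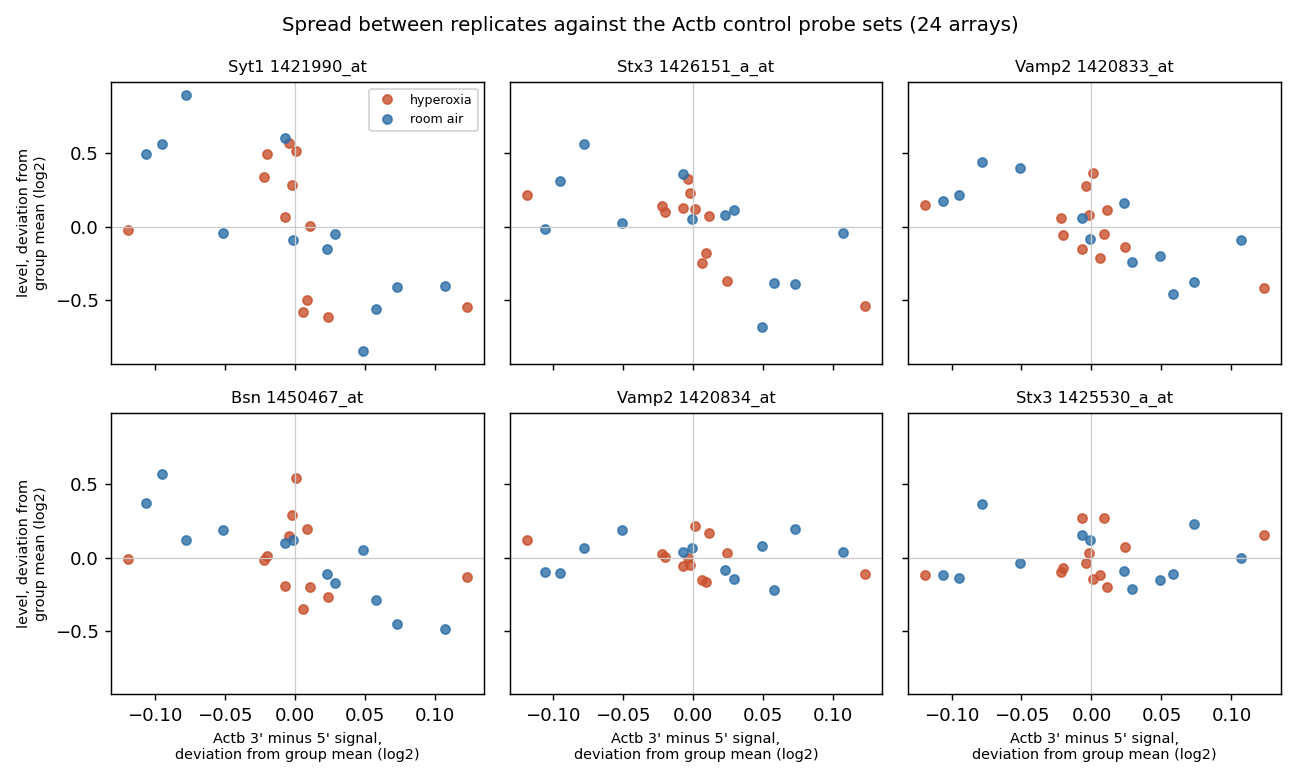
Deviation of a probe set from its group mean (vertical, log2) against the deviation of the Actb 3' minus 5' control difference (horizontal, log2) over 24 arrays, hyperoxia and room air in separate colours. Points slope downward for Syt1, Stx3 on 1426151_a_at, Vamp2 on 1420833_at and Bsn (r of -0.65, -0.64, -0.70 and -0.62), and not for the second probe sets of Vamp2 (r = -0.11) and Stx3 (r = 0.12).

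Syt1 on 1421990_at and 1 of the 3 Stx3 probe sets, 1426151_a_at, moved together between arrays. The brightest Stx3 probe set, 1425530_a_at, did not track 1426151_a_at (r = 0.06). Any part of promoter sequence in this spread was not tested. For Syt1 and Stx3 the 250 bases before the annotated starts are shown, from RefSeq on build GRCm38.p6, 5′ to 3′ on the strand of the gene. Syt1 has 2 starts in that table, at chr10:109010976-109011225 and chr10:109009112-109009361, and Stx3 has 1, at chr19:11819404-11819653, all on the minus strand. Capitals mark matches, on either strand, to 3 motifs that do not overlap here: ACGTG, the core of hypoxia-inducible factor sites, TAATCC, the core of Crx and Otx sites, and GGGCGG, the GC box of Sp factors.
Syt1, upstream start: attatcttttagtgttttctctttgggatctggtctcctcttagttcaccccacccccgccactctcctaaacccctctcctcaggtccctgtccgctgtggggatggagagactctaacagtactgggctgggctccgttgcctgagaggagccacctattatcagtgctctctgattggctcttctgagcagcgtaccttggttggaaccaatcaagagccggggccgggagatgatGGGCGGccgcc
Syt1, downstream start: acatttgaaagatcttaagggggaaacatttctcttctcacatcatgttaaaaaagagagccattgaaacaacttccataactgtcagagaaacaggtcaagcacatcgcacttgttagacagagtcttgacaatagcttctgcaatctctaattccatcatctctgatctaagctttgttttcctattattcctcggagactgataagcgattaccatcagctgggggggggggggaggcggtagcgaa
Stx3: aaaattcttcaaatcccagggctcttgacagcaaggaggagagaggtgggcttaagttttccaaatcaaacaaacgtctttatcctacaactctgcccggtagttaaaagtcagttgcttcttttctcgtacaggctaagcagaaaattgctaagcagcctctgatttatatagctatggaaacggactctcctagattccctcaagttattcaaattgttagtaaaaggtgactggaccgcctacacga

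Of the 3 windows, only that of the upstream Syt1 start held a match, to GGGCGG. That motif stood in 32.7% of 32851 RefSeq windows of this length, ACGTG in 16.6% and TAATCC in 6.25%. Of the 8 measured genes, 6 are in the table (Syp, Syt1, Stx3, Ctbp2, Bsn and Cplx2) with 8 starts. GGGCGG was also found for Syp, TAATCC for Syp and for 1 of 2 Ctbp2 starts, and ACGTG for none of the 8 starts. GC content was 56.4% and 42.8% in the Syt1 windows and 42.0% in that of Stx3.

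The mean standardized profile of the 8 measured genes over the 24 arrays was compared with every other named gene by Pearson's r, as a description. Each gene stood by its brightest probe set, which was 1425530_a_at for Stx3 and 1420834_at for Vamp2. Among the members themselves Snap25 followed it most closely (r = 0.87) and Cplx2 least (r = 0.08), with Syt1 at 0.73, Stx3 at 0.67, Syp at 0.66, Bsn at 0.54, and Vamp2 and Ctbp2 at 0.44 each. The profile includes each of these genes, so their r cannot be set beside those of other genes. Of 9258 ranked genes the highest were Thrb (0.80), Ankrd6 (0.79), Dgke (0.79), Mapk9 (0.79) and Camk2d (0.78), and the lowest Morn4 (-0.86), Taf6 (-0.85), Trir (-0.83), Telo2 (-0.83) and Nme2 (-0.82). All points share the arrays, and with them the spread described for Syt1.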

How the data were processed

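The authors deposited 1 linear intensity per probe set and array. The software and scaling behind it are not given in any source used. With the top and bottom 2% of values removed, every array averaged 1499.90 to 1499.91, while medians ran between 570.1 and 679.6. From the deposited intensities, log2 values were computed here after quantile normalization, with values under the 20th percentile (136.8) raised to it. Control probe sets and probe sets with a mean under the 30th percentile (log2 7.91) were left out. Gene names come from the platform annotation supplied. limma 3.58.1 in R 4.3.3 was fitted over 8 groups (16 residual and 3.55 prior degrees of freedom). The procedure was tested on simulated data drawn independently for each probe set, so spread shared between probe sets was not simulated. Figures used matplotlib 3.10.9 in Python 3.11.15. The number of arrays limits the precision.

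The members, the gene lists and the tests were chosen with earlier results of these data known. Named genes were all members, up to 4 genes per list with the lowest p between days 7 and 12 in room air, and the 5 highest and 5 lowest by likeness of profile. A list gene called in a hyperoxia comparison would also have been named. Cplx1 and Cplx3 are given beside the other complexins and are not counted among the named genes. Alternatives were the deposited scaling, another floor, no filter or a stricter one, a replicate block, lens and pigment scores as covariates, leaving out each array and, added after seeing the data, the Actb covariate.

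Replicate numbers come from the sample titles. Deviations of same-numbered arrays correlated at 0.45, 0.23 and 0.39 between hyperoxia and room air at day 12, and at 0.37, 0.15 and 0.31 between days 12 and 7 in hyperoxia. By the rule that every pair exceeds 0.1, the numbers were taken as pairing these samples, and no others among the comparisons checked. The rule looks at same-numbered arrays alone, so it does not show that the samples were paired.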

Additional observations from a re-analysis of the deposited data

How the results depend on the processing

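For hyperoxia against room air, the count of 0 called release probe sets held at each age, in the average and in the F test under every alternative run and every omitted array. Between days 7 and 12, hyperoxia gave 2 calls, against 1 without the filter on dim probe sets and 0 with lens and pigment scores as covariates. Leaving out 1 of the 6 arrays of the 2 ages gave 0 to 1 calls in hyperoxia and 0 to 1 in room air, and leaving out 1 of the other 18 gave 2 in hyperoxia and 0 in room air. With the Actb covariate, room air gave 2. Among the other release genes, the lens and pigment covariates left 6 higher and 0 lower in hyperoxia, and 12 higher and 0 lower in room air. The deposited scaling gave 1 lower in hyperoxia and the replicate block gave 4. Leaving out 1 of the 6 arrays gave 14 to 18 higher and 1 to 2 lower in hyperoxia, and 12 to 17 higher and 0 to 2 lower in room air. The counts over all probe sets fell with these covariates too, to 598 against 1994 in hyperoxia and to 1297 against 1959 in room air. The named genes whose calls were lost, 11 in hyperoxia and 3 in room air, kept their direction, at 0.65 to 1.13 times the log2 difference, with larger standard errors.

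Signs turned only for differences that were not called. In the average of hyperoxia minus room air, Syp on 1456249_x_at was at 0.03 with the deposited scaling, 0.04 with the lens and pigment covariates and 0.01 with the Actb covariate, against -0.02. Under the deposited scaling, Snap25 was at -0.02 and Stx3 on 1425530_a_at at -0.01, and with the lens and pigment covariates Stx3 on 1425536_at was at -0.01. Between days 7 and 12, Ctbp2 on 1434705_at was at 0.25 in hyperoxia with the lens and pigment covariates. In room air it was at 0.03, 0.16 and 0.03 with the deposited scaling, the lens and pigment covariates and the Actb covariate. Leaving out 1 array turned signs within -0.08 to 0.06 for Syp on 1456249_x_at, -0.02 to 0.06 for Stx3 on 1425530_a_at, -0.01 to 0.08 for Stx3 on 1425536_at and -0.01 to 0.07 for Cplx2 in the average. Between days 7 and 12 in hyperoxia the ranges were -0.36 to 0.15 for Syp on 1456249_x_at, -0.32 to 0.21 for Ctbp2 on 1434705_at and -0.13 to 0.04 for Cplx2. In room air they were -0.13 to 0.46 and -0.33 to 0.44 for the 2 Syt1 probe sets and -0.28 to 0.16 for Ctbp2 on 1434705_at. The replicate block changed no call of a release probe set other than that of Stx3 in hyperoxia, at 0.69 (adjusted p = 0.0392). Where the rule did not take the numbers as pairing the samples, the block left the count of release calls at 0.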
